A study of Mus musculus with 10 samples.

Results

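The genes described here are markers and regulators of epithelial-to-mesenchymal transition (EMT). Their signals were compared between laser-dissected colon tumours of Bcl9/Bcl9l knockout (KO) mice and those of wild-type mice. They are vimentin (Vim), fibronectin (Fn1), S100a4, the transcription factor genes Zeb1, Zeb2, Snai1, Snai2 and Twist1, and the cadherin genes Cdh1 and Cdh2. Every probe set annotated to 1 of these 10 genes and to no other gene was taken, which gave 22 of the 45101 probe sets on the array. The 5 KO tumours came from 3 mice of genotype vil-Cre-Bcl9-/-/Bcl9l-/-, with tumours 2 and 6 from mouse 02, tumours 9 and 11 from mouse 04 and tumour 7 from mouse 99. The 5 WT tumours came from 2 wild-type (WT) mice, for which no Cre is listed, with tumours 1, 3, 12 and 13 from mouse 72 and tumour 8 from mouse 82. Mice of both genotypes shared a 129SvEv/C57BL/6/DBA/2 mixed background. At 6 to 8 weeks of age all received dimethylhydrazine, a carcinogen precursor, at 44 mg/kg, followed by 7 days of drinking water with 2% dextran sulfate sodium, an irritant of the colon lining. The promoter in the vil-Cre transgene is that of villin, a gene of the gut epithelium, and the labels do not say in which dissected cells the genes were deleted. The extraction notes speak of pooling the samples of 1 mouse, while several arrays per mouse are listed, so how far tumours of 1 mouse are separate is not settled by the labels. Each tumour was hybridised to 1 Affymetrix mouse expression array after amplification of its RNA, and values are log2 signals from RMA, a background correction and normalization over probes.

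In EMT, epithelial cells give up cadherin-based contacts and take on features of mesenchymal cells such as fibroblasts. Factors of the Snai, Zeb and Twist families bind E-box sequences and lower the transcription of epithelial genes, among them Cdh1, which encodes E-cadherin. Vimentin, fibronectin, N-cadherin (Cdh2) and S100a4 are the usual markers of the mesenchymal end, and in a dissected tumour they are also made by fibroblasts, endothelial cells and leukocytes. Bcl9 and Bcl9l are co-factors of beta-catenin, which acts both in Wnt-driven transcription and, at the membrane, in the contacts made by E-cadherin.

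The array medians lay between 6.43 and 6.50 log2, and the mean correlation of an array with the others lay between 0.964 and 0.976, with WT tumour 1 lowest. Of the 5 probe sets of Bcl9 and Bcl9l, 0 passed the test, 1 had the lower mean in KO tumours, and the differences ran from −0.14 to 0.32 log2 (limma, adjusted p from 0.256 to 0.672). Whether they lie in the deleted parts is not given, and they are no check on genotype. The means of 8 colon epithelium markers lay between 11.13 and 11.56 log2 in KO tumours and between 10.43 and 11.96 in WT tumours. Markers of fibroblasts, smooth muscle, endothelium, macrophages and lymphocytes were compared too, without an assessment of signal over background. In samples that can hold several cell types, fewer cells of a type and less RNA per cell cannot be told apart.

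The sequences of 3 promoters are shown because they belong to Vim, 1 of the 2 genes that fell, to S100a4, a mesenchymal marker that did not pass the test, and to Snai1, an EMT factor gene with an E-box in this window. Fn1, the other gene that fell, had no match in the promoter table used. Each line gives the 250 bases before the RefSeq start of the gene, 5′ to 3′ on the plus strand of assembly GRCm38.p6, at chr2:13574061-13574310 for Vim, chr3:90603520-90603769 for S100a4 and chr2:167537945-167538194 for Snai1. Capitals mark TATAAA, the TATA box, in Vim and S100a4, and CACCTG, the E-box read by Snai and Zeb factors, in Snai1.
Vim: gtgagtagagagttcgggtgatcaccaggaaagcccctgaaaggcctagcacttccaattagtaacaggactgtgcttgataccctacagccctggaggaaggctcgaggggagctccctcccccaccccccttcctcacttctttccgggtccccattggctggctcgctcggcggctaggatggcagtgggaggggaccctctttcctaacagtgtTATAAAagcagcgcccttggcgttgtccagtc
S100a4: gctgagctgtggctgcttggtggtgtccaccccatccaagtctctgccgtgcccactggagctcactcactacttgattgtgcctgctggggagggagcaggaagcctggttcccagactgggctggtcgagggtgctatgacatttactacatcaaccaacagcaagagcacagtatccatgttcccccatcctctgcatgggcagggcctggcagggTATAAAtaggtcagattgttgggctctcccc
Snai1: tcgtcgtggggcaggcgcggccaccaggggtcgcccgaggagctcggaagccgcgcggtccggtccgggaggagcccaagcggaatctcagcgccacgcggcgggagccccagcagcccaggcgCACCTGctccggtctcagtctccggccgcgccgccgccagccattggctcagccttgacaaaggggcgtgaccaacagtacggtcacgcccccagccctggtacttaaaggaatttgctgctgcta

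The TATA box began 32 bases before the start of Vim and 31 bases before that of S100a4, and the E-box 126 bases before that of Snai1. On both strands, CACCTG was found in 17.2% of the 32851 promoters of the same length in the table, and TATAAA in 12.4%. The TCF/LEF motifs CTTTGAA and CTTTGAT, found in 4.46% and 3.21%, were in none of these 3 windows. TATAAA was added to the search after the sequences had been seen. A match is a description of the letters only.

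Of the 22 probe sets, 5 were lower in KO tumours past the threshold, an adjusted p of 0.05, and 0 were higher. These were the 3 probe sets of Vim and the 2 of Fn1. Among all 45037 probe sets tested, 2.05% were called lower and 2.31% higher (limma with the mouse as a random block, Benjamini-Hochberg over all probe sets). The other 17 probe sets, of all 8 remaining genes, did not pass. Of the 22 differences 18 were negative and 4 positive, with a median of −0.18 log2 against −0.0055 over all probe sets. That count takes genes with several probe sets more than once. With 1 probe set per gene, 7 differences were negative and 3 positive, with a median of −0.14 against 0.0011 over all genes.

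Vim encodes the main intermediate filament protein of mesenchymal cells, and it fell in KO tumours in each of its probe sets. Probe set 1438118_x_at, that with the highest mean, was at 11.92, 11.82, 11.53, 11.11 and 11.50 log2 in KO tumours 2, 6, 7, 9 and 11, against 13.04, 12.30, 12.94, 12.76 and 12.92 in WT tumours 1, 3, 8, 12 and 13. The groups did not overlap, the highest KO tumour being 2 and the lowest WT tumour 3. Over all probe sets, 3.39% had all KO tumours below all WT tumours. The KO mean of 11.58 ± 0.31 stood against a WT mean of 12.79 ± 0.29 (SD, n = 5), a difference of −1.22 ± 0.19 log2 (SE), or 2.32-fold lower (limma, adjusted p = 0.00509).

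Probe set 1450641_at of Vim gave the widest gap of the 3. It was at 10.34, 10.34, 10.18, 9.80 and 9.9997 log2 in KO tumours 2, 6, 7, 9 and 11, against 12.37, 11.35, 11.92, 11.83 and 11.98 in WT tumours 1, 3, 8, 12 and 13. Here too all KO tumours lay below all WT tumours, and the level was 3.38-fold lower (difference −1.76 ± 0.19, SE, adjusted p = 7.47e-04). Probe set 1456292_a_at was at 11.63, 11.45, 11.25, 10.90 and 11.22 log2 in KO tumours 2, 6, 7, 9 and 11, against 12.94, 12.11, 12.73, 12.60 and 12.74 in WT tumours 1, 3, 8, 12 and 13. It was 2.53-fold lower, again without overlap (adjusted p = 0.00277). This probe set and 1438118_x_at are annotated to the same source sequence, so they are not separate measurements of the transcript. Within the groups the 3 probe sets varied together, with correlations of their deviations from the group means between 0.92 and 0.99 over the 10 tumours.

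By mouse, the Vim means of 1438118_x_at were 11.87, 11.31 and 11.53 log2 in KO mice 02, 04 and 99, against 12.75 and 12.94 in WT mice 72 and 82. All KO mice lay below both WT mice. The labels give each sample a unique number, from 191 to 229 for 1 KO and 4 WT tumours and from 254 to 258 for 4 KO and 1 WT tumours. Among the lower numbers the Vim difference was −1.18 log2 and among the upper ones −1.45, and neither passed (adjusted p = 0.260 and 0.0806), and −1.36 without mouse 72 (adjusted p = 0.0729). The other Vim probe sets did not pass among the lower numbers either, but both 1456292_a_at and 1450641_at passed among the upper numbers (adjusted p = 0.0423 and 0.0120) and without mouse 72 (0.0447 and 0.0125). Each of these fits leaves 1 tumour in a group, which is assumed to vary like the others.

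Fn1 encodes fibronectin, a matrix glycoprotein that cells bind through integrins, and it fell in KO tumours as well. Probe set 1426642_at was at 10.497, 9.998, 9.52, 9.40 and 9.52 log2 in KO tumours 2, 6, 7, 9 and 11, against 11.94, 10.94, 10.44, 11.46 and 11.75 in WT tumours 1, 3, 8, 12 and 13. The groups overlapped in 1 place, with KO tumour 2 above WT tumour 8, the only tumour of mouse 82. The KO mean was 9.79 ± 0.46 and the WT mean 11.30 ± 0.61 (SD, n = 5), a difference of −1.49 ± 0.31 log2 (SE), or 2.82-fold lower (limma, adjusted p = 0.0237).

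Probe set 1437218_at of Fn1 was at 6.57, 5.34, 5.07, 5.27 and 4.92 log2 in KO tumours 2, 6, 7, 9 and 11, against 9.46, 7.54, 6.26, 8.46 and 9.04 in WT tumours 1, 3, 8, 12 and 13. The same pair of tumours overlapped, and the level was 6.34-fold lower (difference −2.66 ± 0.58, SE, adjusted p = 0.0273). Its KO mean of 5.43 lay under 5.82 log2, the level that 40% of probe sets do not reach (the 40th percentile), where signal over background was not assessed, so this fold is not exact. Both probe sets deviated together within the groups (r = 0.96 over the 10 tumours).

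The Fn1 call depended on which animals were included. With 1 mean per mouse, KO mice 02, 04 and 99 stood at 10.25, 9.46 and 9.52 log2 for 1426642_at, against 11.52 and 10.44 in WT mice 72 and 82, and the difference of −1.24 did not pass (adjusted p = 0.213). Leaving out mouse 72, the source of 4 WT tumours, it was −0.66 (adjusted p = 0.536), and −1.30 without mouse 04 (adjusted p = 0.116). Among the lower sample numbers it was −1.66 and among the upper ones −2.09 (adjusted p = 0.368 and 0.0634). The other Fn1 probe set, 1437218_at, had differences of −2.82 among the lower and −3.94 among the upper numbers, and −0.84 without mouse 72. It missed the threshold with 1 mean per mouse (−2.07, adjusted p = 0.243) and without mouse 04 (−2.49, adjusted p = 0.120). Another covariate was the difference between 3′ and 5′ probes of each array, a measure of RNA quality. With it 1437218_at missed the threshold (−2.31, adjusted p = 0.0587), where 1426642_at passed (−1.29, adjusted p = 0.0457). Of the alternatives run, 1437218_at passed in 16 of 26 and 1426642_at in 18 of 27. Probe set 1426642_at also missed the threshold without KO tumour 6, 9 or 11 or WT tumour 13, with adjusted p-values between 0.0516 and 0.0618.

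**Figure D1:**
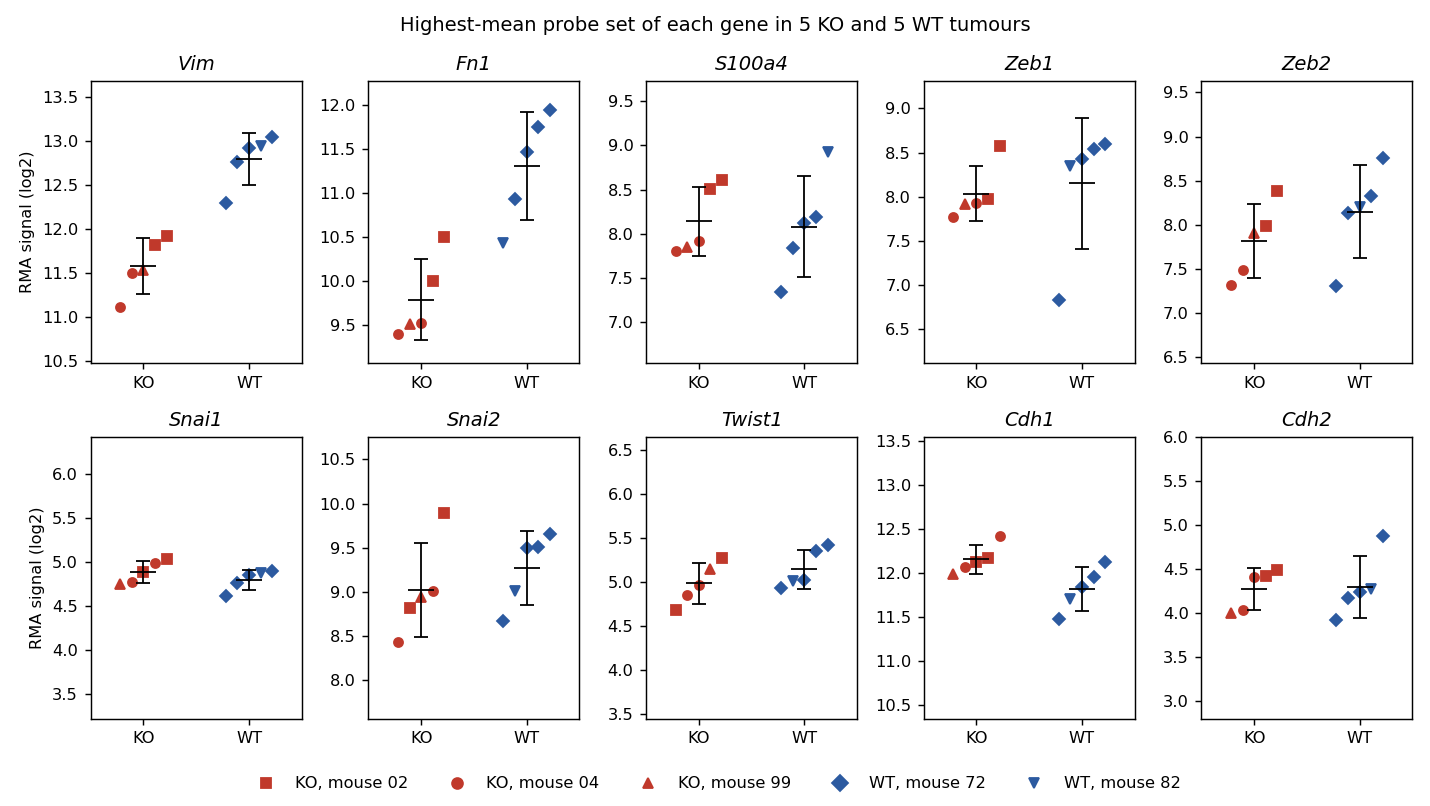
RMA signal (log2) of the highest-mean probe set of each of the 10 genes, KO tumours left and WT tumours right, with every panel spanning the same number of log2 units. Points are tumours, symbols mice, and black lines the mean ± SD of 5 tumours. For Vim all KO tumours (up to 11.92) lie below all WT tumours (from 12.30), for Fn1 1 KO tumour exceeds 1 WT tumour, and the other 8 genes overlap more widely.

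S100a4, a calcium-binding protein gene also known as a fibroblast and leukocyte marker, did not follow Vim and Fn1. It was at 8.61, 8.50, 7.85, 7.80 and 7.92 log2 in KO tumours 2, 6, 7, 9 and 11, against 8.12, 7.34, 8.92, 8.18 and 7.84 in WT tumours 1, 3, 8, 12 and 13. The KO tumours lay inside the range of the WT tumours, whose ends were tumours 3 and 8. The difference was 0.03 log2 with a 95% interval from −0.60 to 0.65 (limma, adjusted p = 0.976). Tumours of mouse 02 were the highest among KO and the tumour of mouse 82 the highest among WT, with mouse means of 8.56 and 8.92. Without mouse 72 the difference was −0.79 and did not pass either (adjusted p = 0.346).

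The Zeb factors, zinc finger repressors that act on E-box sequences, did not pass in any of their 9 probe sets. Zeb1 probe set 1418926_at was at 8.57, 7.97, 7.92, 7.93 and 7.77 log2 in KO tumours 2, 6, 7, 9 and 11, against 8.54, 6.83, 8.35, 8.43 and 8.60 in WT tumours 1, 3, 8, 12 and 13. WT tumour 3 was the lowest of all 10 and KO tumour 2 the second highest. The difference was −0.12 log2 (95% interval −0.87 to 0.62, adjusted p = 0.896). The second Zeb1 probe set above the 40th percentile, 1446127_at, had a difference of −0.38 (−0.91 to 0.14, adjusted p = 0.443). Probe sets 1443005_at and 1420243_at were under that percentile, with differences of −0.11 and 0.07.

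Zeb2 probe set 1422748_at was at 8.39, 7.98, 7.90, 7.49 and 7.32 log2 in KO tumours 2, 6, 7, 9 and 11, against 8.14, 7.31, 8.21, 8.33 and 8.75 in WT tumours 1, 3, 8, 12 and 13. The groups overlapped through WT tumour 3, which lay below every KO tumour, and KO tumour 2, which lay above every WT tumour except 13. WT tumours 1, 8, 12 and 13 (from 8.14) lay above KO tumours 6, 7, 9 and 11 (up to 7.98). The difference was −0.33 log2 (95% interval −0.95 to 0.29, adjusted p = 0.603). The other 4 probe sets of Zeb2 had differences between −0.43 and −0.11, and 1 of them, 1458941_at, had an unadjusted p of 0.0291 at a level under the 40th percentile (adjusted p = 0.207). Across all probe sets 18.2% had an unadjusted p under 0.05.

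The Snai and Twist factors, which initiate EMT in embryos at gastrulation and in the neural crest, did not pass either. Snai2 probe set 1447643_x_at was at 9.89, 8.82, 8.94, 8.43 and 9.005 log2 in KO tumours 2, 6, 7, 9 and 11, against 9.50, 8.67, 9.004, 9.51 and 9.66 in WT tumours 1, 3, 8, 12 and 13. KO tumour 2 had the highest value and KO tumour 9 the lowest, so the WT range lay inside the KO range. The difference was −0.24 log2 (95% interval −0.87 to 0.38, adjusted p = 0.722), and that of the other Snai2 probe set, 1418673_at, was −0.19 (adjusted p = 0.750).

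Snai1 was at 5.04, 4.89, 4.75, 4.77 and 4.99 log2 in KO tumours 2, 6, 7, 9 and 11, against 4.85, 4.76, 4.88, 4.90 and 4.61 in WT tumours 1, 3, 8, 12 and 13. Twist1 was at 5.27, 4.68, 5.15, 4.96 and 4.85 log2 in KO tumours 2, 6, 7, 9 and 11, against 5.35, 4.93, 5.01, 5.02 and 5.42 in WT tumours 1, 3, 8, 12 and 13. Both genes, each with 1 probe set, lay under the 40th percentile in every tumour, and their groups overlapped. The differences were 0.08 log2 for Snai1 (95% interval −0.14 to 0.30, adjusted p = 0.729) and −0.16 for Twist1 (−0.49 to 0.17, adjusted p = 0.648). At such levels a probe set can fail to register a change, and no detection calls were used here.

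Of the cadherins, Cdh1 had the higher mean in KO tumours without passing. It was at 12.13, 12.17, 11.99, 12.42 and 12.08 log2 in KO tumours 2, 6, 7, 9 and 11, against 11.48, 11.95, 11.71, 12.13 and 11.84 in WT tumours 1, 3, 8, 12 and 13. Every KO tumour lay above 4 of the 5 WT tumours, and WT tumour 12 lay among the KO tumours. The KO mean was 12.16 ± 0.16 and the WT mean 11.82 ± 0.25 (SD, n = 5), a difference of 0.34 log2 with a 95% interval from 0.03 to 0.64 (unadjusted p = 0.0336, adjusted p = 0.223, limma).

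Cdh2 probe set 1449244_at was at 4.49, 4.43, 4.00, 4.04 and 4.41 log2 in KO tumours 2, 6, 7, 9 and 11, against 4.88, 3.93, 4.28, 4.17 and 4.24 in WT tumours 1, 3, 8, 12 and 13. The KO tumours lay inside the WT range. The difference was −0.03 log2 (95% interval −0.44 to 0.38, adjusted p = 0.962), and both Cdh2 probe sets lay under the 40th percentile.

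**Figure D2:**
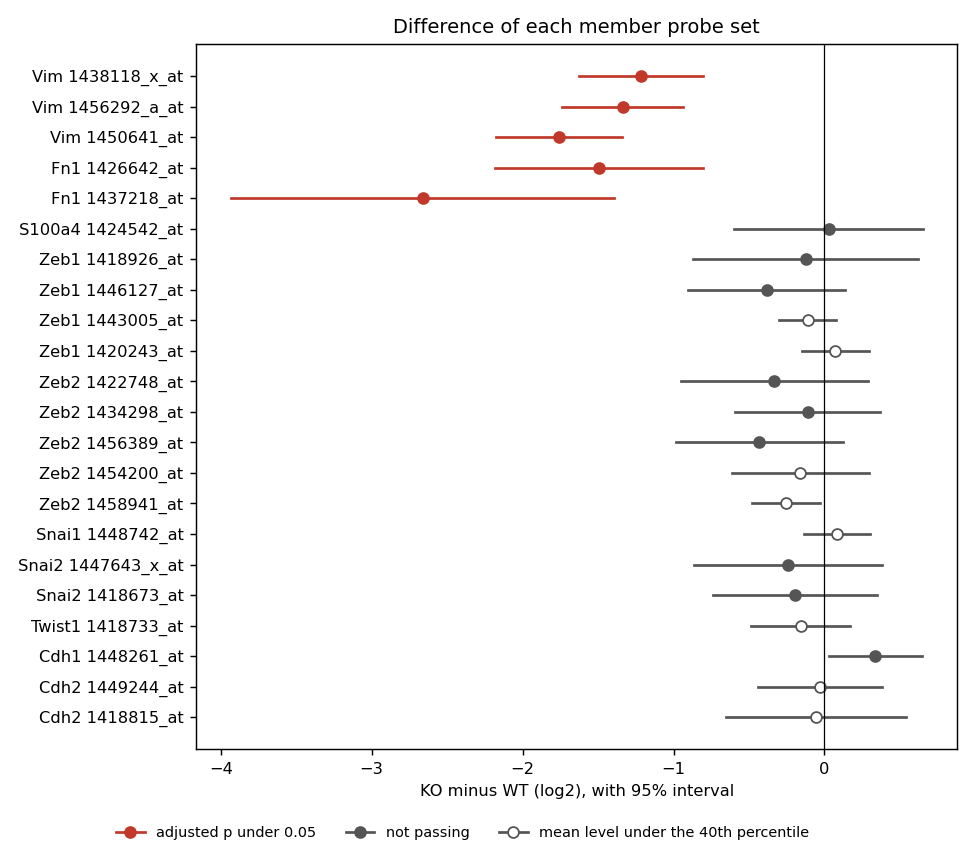
Difference of KO minus WT tumours (log2) for each of the 22 probe sets, with 95% intervals from the limma fit. Red marks an adjusted p under 0.05 and open circles a mean level under the 40th percentile. The 5 probe sets of Vim and Fn1 lie between −2.66 and −1.22, and the other 17 lie between −0.43 and 0.34.

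Vimentin and fibronectin are products of fibroblasts, so the levels of 11 fibroblast markers were set beside them. Of these markers 0 passed the test and 2 had an unadjusted p under 0.05, Fap and Dcn, with differences of 0.62 and −0.74 log2. The median difference of the 11 markers was −0.18, against 0.0011 over all 18193 genes taken with 1 probe set each. Of those 18193 genes, 3522 had an unadjusted p under 0.05 (limma). The mean of the 11 markers lay between 8.64 and 9.61 log2 in KO tumours and between 8.41 and 9.58 in WT tumours. It was lowest in WT tumour 3 and highest in KO tumour 2.

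Among KO tumours the order by fibroblast mean was also the order by Vim, and among WT tumours it was so except for tumour 8. WT tumour 3 had the lowest fibroblast mean of all tumours, 8.41, and its Vim signal of 12.30 exceeded that of every KO tumour. KO tumour 2 had the highest fibroblast mean, 9.61, and its Vim signal of 11.92 was under that of every WT tumour. With the fibroblast mean as a covariate, added after the data were seen, the difference was −1.11 log2 for Vim and −1.29 for Fn1 (limma, adjusted p = 0.00137 and 0.0186), and all 5 probe sets passed. In the same fit Zeb1 and Zeb2 had differences of 0.09 and −0.16 (adjusted p = 0.853 and 0.717). The fibroblast mean joins markers that differed in either direction. Those higher in KO tumours were Fap (0.62 log2) and Lum (0.24), both under the 40th percentile, and Thy1 (0.03). The others, among them Dcn (−0.74), were lower. The part of fibroblast content in the lower Vim and Fn1 signals was not tested.

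**Figure D3:**
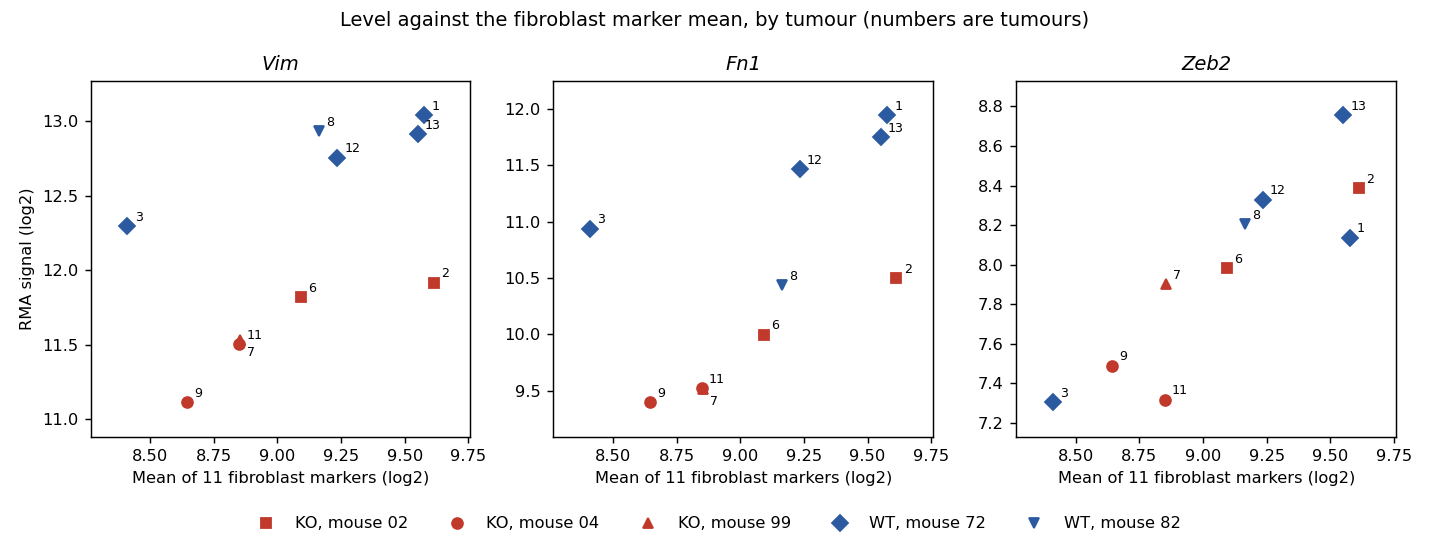
RMA signal (log2) of Vim, Fn1 and Zeb2 against the mean of 11 fibroblast markers (log2), 1 point per tumour, KO red and WT blue, symbols by mouse. For Vim all KO tumours lie below all WT tumours. WT tumour 3 (8.41 on the horizontal axis) and KO tumour 2 (9.61) are the ends, and through them the genotypes overlap for Zeb2. Between these ends, Zeb2 in KO tumours 6, 7, 9 and 11 (up to 7.98) lies below that in WT tumours 1, 8, 12 and 13 (from 8.14).

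Markers of other cells that make vimentin were compared in the same way. Lymphocyte markers were higher in KO tumours, with 6 of 8 past the threshold, among them Cd8a, a co-receptor of cytotoxic T cells, by 2.70 log2, the chemokine gene Ccl5 by 2.97, the B cell receptor gene Cd79a by 1.81 and the T cell receptor complex gene Cd3g by 1.63 (adjusted p from 1.56e-04 to 0.00351). Another of the 6, Cd2, an adhesion receptor of T cells, had a difference of 0.96 and missed the threshold in 16 of 27 alternatives. The 2 markers that did not pass were Cd4 (0.05, adjusted p = 0.826) and Ms4a1 (0.40, adjusted p = 0.291). By mean level Ms4a1 lay under the 40th percentile, and so did Cd3e, which was among the 6 that passed. For all 6 the WT mean was under that percentile, from 4.38 log2 for Cd3e to 5.77 for Cd8a. Signal over background was not assessed there, so the sizes of these differences are not exact. Over genes with 1 probe set each, 2.8% were called higher and 2.05% lower. The mean of the lymphocyte markers was 6.26 to 6.88 log2 in KO tumours and 4.93 to 5.61 in WT tumours, without overlap and opposite in direction to Vim. Its part in the results was not tested.

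Of 7 macrophage markers 1 passed, Cd14, a co-receptor for lipopolysaccharide, which was 3.76-fold higher. The second smallest p in that list was that of Itgam, at −0.25 log2 (adjusted p = 0.215). Of 7 endothelial and 7 smooth muscle markers 0 passed, with medians of −0.22 and −0.04 log2. The smallest p-values belonged to Vwf and Tek (−0.89 and −0.99 log2) and to Mylk and Des (−0.76 and −0.07). The mean of the endothelial markers was 6.58 to 7.64 log2 in KO tumours and 6.51 to 7.71 in WT tumours. That of the smooth muscle markers was 7.84 to 8.80 in KO tumours and 7.71 to 8.78 in WT tumours, and that of the macrophage markers 8.06 to 8.24 in KO tumours and 7.37 to 8.17 in WT tumours.

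Further genes of the mesenchymal programme, 19 of them measured, had 2 called lower and 0 higher. Foxc2, a forkhead factor that promotes EMT, was 7.11-fold lower, averaging 3.78 ± 0.46 log2 (KO) and 6.58 ± 1.08 (WT) (SD, n = 5, adjusted p = 0.00928), without overlap. Its KO mean was under the 40th percentile, so the fold is not exact. Lox, which cross-links collagen and elastin, was 2.99-fold lower, averaging 6.18 ± 0.51 (KO) and 7.75 ± 0.68 (WT) (adjusted p = 0.0301), and missed the threshold in 13 of 27 alternatives, among them 1 mean per mouse (adjusted p = 0.0584). The median of the list was −0.34 log2.

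The epithelial genes that EMT factors repress, 20 in number, had 0 past the threshold and 4 with an unadjusted p under 0.05. Over all 18193 genes, 3522 had such a p (limma). Ovol2, a repressor of Zeb1 and of EMT, averaged 7.04 ± 0.35 log2 (KO) and 6.34 ± 0.33 (WT) (SD, n = 5) without overlap, but did not pass (difference 0.70, adjusted p = 0.0893). The tight junction gene Cldn4 had a difference of −0.79 (adjusted p = 0.176). The list median was 0.10 log2. Of the 8 colon epithelium markers 0 passed, and the smallest p-values were those of Vil1, which encodes villin, at 0.69 log2 (adjusted p = 0.0853) and Cdx1 at 0.61 (adjusted p = 0.537).

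Of 11 other cadherins and catenins 0 passed and 3 had an unadjusted p under 0.05, against 3522 of all 18193 genes (limma). Cdh13, a cadherin anchored in the membrane by a lipid, averaged 7.42 ± 1.32 log2 (KO) and 9.58 ± 0.85 (WT), without overlap (difference −2.19, adjusted p = 0.0853), and Cdh11, a cadherin of mesenchymal cells, had a difference of −1.14 (adjusted p = 0.152). The mean of the 11 genes lay between 8.53 and 8.91 log2 in KO tumours and between 8.97 and 9.23 in WT tumours, without overlap. Cdh13 and Cdh11 had the widest differences in this mean, and the list median was −0.18 log2. Cdh17, Ctnnd1, Ctnna1 and Cdh4 differed by −0.02 to −0.05, and Cdh6 by 0.10. How often the mean of a list fails to overlap was not assessed. Among 8 genes of other intermediate filaments and their partners 0 passed, with Krt7 and Lmnb1 first by p (−0.28 and −0.43, adjusted p = 0.244 and 0.366).

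Among 12 receptors and matrix partners of fibronectin, 1 passed, and it was higher in KO tumours. Tgm2, a transglutaminase that binds fibronectin, averaged 12.70 ± 0.38 log2 (KO) and 11.55 ± 0.48 (WT) (SD, n = 5), 2.26-fold higher (adjusted p = 0.0280), and missed the threshold in 12 of 27 alternatives, among them 1 mean per mouse (adjusted p = 0.0901). Itgb1, the integrin chain shared by several fibronectin receptors, was lower in all KO than in all WT tumours, with a difference of −0.32 that did not pass (adjusted p = 0.0837). Of 12 S100 family genes besides S100a4, 0 passed, and S100a1 and S100g came first by p (0.70 and 0.57 log2, adjusted p = 0.0921 and 0.239).

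Among 13 genes of signals upstream of the EMT factors, 1 fell and 1 rose. Tgfb3, a ligand of the TGF-beta family that can induce EMT, was 2.64-fold lower, averaging 5.33 ± 0.33 log2 (KO) and 6.75 ± 0.48 (WT) (SD, n = 5, adjusted p = 0.0109), with a KO mean under the 40th percentile. It did not pass without mouse 04 (adjusted p = 0.0636) or mouse 72 (0.181). Id1, an inhibitor of helix-loop-helix factors such as Twist1, was 1.93-fold higher, averaging 9.73 ± 0.41 (KO) and 8.78 ± 0.18 (WT) (adjusted p = 0.0189), but not with 1 mean per mouse (adjusted p = 0.161). The genotypes did not overlap for either gene, as for 3.39% of all genes on the lower and 4.18% on the higher side.

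**Figure D4:**
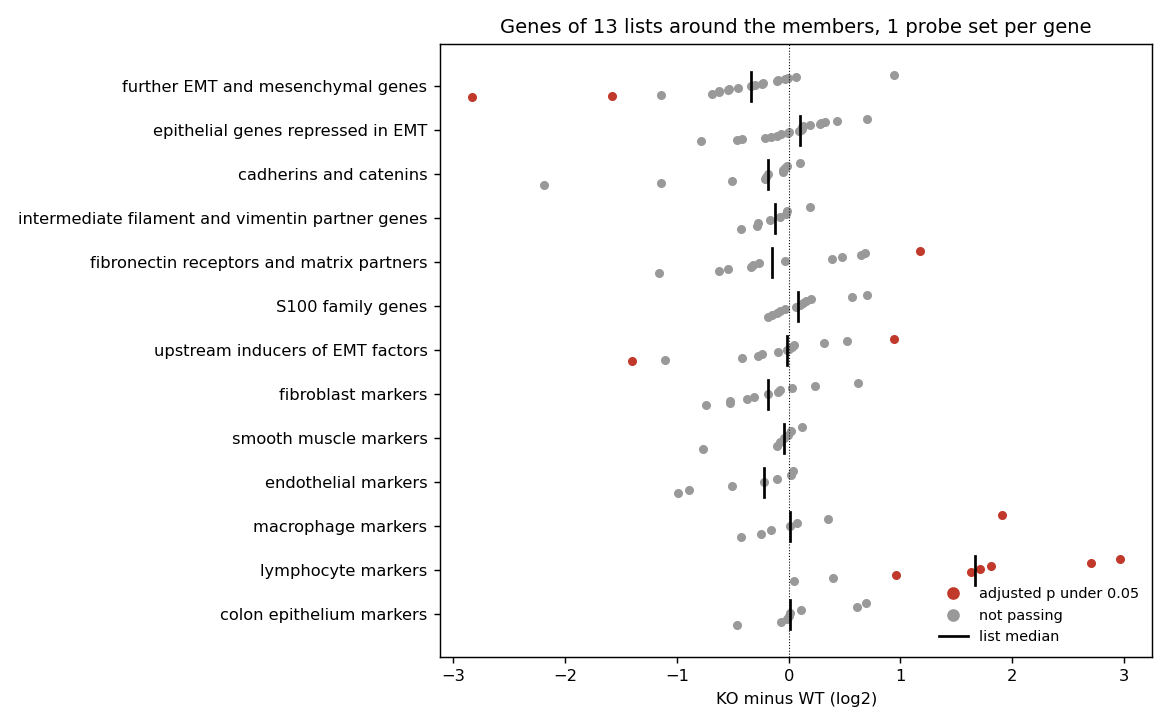
Difference of KO minus WT tumours (log2) for the measured genes of 13 lists, 1 point per gene, red where the adjusted p was under 0.05, with the list median as a black line. The lymphocyte markers have a median of 1.67, and the medians of the other 12 lists lie between −0.34 and 0.10.

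The genes whose variation within the genotypes was most like that of Vim, Fn1 and S100a4 were sought among 12249 genes at or above the 40th percentile, by the correlation of deviations from the group means over the 10 tumours. For Vim these were Lhfp (r = 0.97, rho = 0.92), Cd248, a marker of stromal cells and pericytes (0.96 and 0.92), and Asf1a, a histone chaperone gene (0.95 and 0.95). For Fn1 they were Dnajc28 (0.98 and 0.96), Clu (0.97 and 0.90) and the lipoprotein lipase gene Lpl (0.97 and 0.95). For S100a4 they were Mrpl48 (0.96 and 0.95), Tgfbr3 (0.96 and 0.89) and Tsc22d3 (0.95 and 0.78). With so many genes and so few tumours, several from 1 mouse, correlations of this size are a description only, and none of these 9 genes passed the test between KO and WT tumours.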

How the data were processed

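RNA of laser-dissected tumours was amplified and hybridised by the authors, 1 array per tumour, 5 KO and 5 WT. The deposited values are log2 signals that the authors made with RMA, per the submitters' processing notes; the version is not given in the sources used here. Array signals hold no read depth, so the number of arrays limits precision. Of 45101 probe sets, 64 controls were left out, and the other 45037 were tested without a filter on level. The fit was limma 3.58.1 in R 4.3.3 with genotype as the factor and the mouse as a random block (duplicateCorrelation, statmod 1.5.0, consensus correlation 0.0553), with Benjamini-Hochberg adjustment over all 45037. With tumours sharing 3 and 2 mice, p-values partly measure the spread within mice. Symbols came from the platform annotation, updated through Entrez identifiers for 34741 of the 34945 probe sets with 1 symbol; 932 had several and 9160 none. A gene was represented by its probe set of highest mean. Every member probe set is described; from each gene list, those past the threshold up to the 4 of smallest p are named, or the 2 of smallest p where fewer than 2 passed. The members and lists were chosen with earlier results of these data known. In all, 27 alternatives were run, among them other scalings, covariates, mouse means and leaving out each tumour or mouse. Data were also simulated for KO against WT with 45037 probe sets and 200 changed. With no correlation within mice, 76% of 2-fold and 94% of 4-fold changes were recovered, and 4.49% of calls were false. At a correlation of 0.3, 70% and 87% were recovered, and 10.8% of calls were false. The data themselves had 922 probe sets called lower and 1041 higher, so these shares may not carry over to them. Promoter sequences are RefSeq's on GRCm38.p6; 5 of the 10 genes (Vim, Zeb2, Snai1, Twist1 and S100a4) matched the table used.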

Additional observations from a re-analysis of the deposited data

Results flagged for a closer look

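In the 44 groups of 5 tumours formed by the 22 probe sets, 5 single values stood far from the rest of their group by Dixon's test, which chance does in about 1 of 20 groups. KO tumour 2 was high for Fn1 probe set 1437218_at, at 6.57 log2, with the nearest KO tumour at 5.34. The same tumour was high for Zeb1 probe set 1418926_at, at 8.57, with the nearest KO tumour at 7.97. WT tumour 3 was low for that Zeb1 probe set, at 6.83, with the nearest WT tumour at 8.35. WT tumour 8 was high for Zeb1 probe set 1443005_at, at 4.33 against 4.13 in the nearest WT tumour. WT tumour 13 was high for Zeb2 probe set 1454200_at, at 4.89 against 4.52. KO tumour 2 also had the highest and WT tumour 3 the lowest mean of the fibroblast markers, 9.61 and 8.41. Without KO tumour 2 the differences were −1.30 log2 for Vim and −1.67 for Fn1, and without WT tumour 3 they were −1.34 and −1.58 (limma, adjusted p from 0.00250 to 0.0277).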

How the results depend on the processing

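No paired analysis was possible because KO and WT tumours came from different mice. In the fit with 1 probe set per gene, Vim and Fn1 had 1 probe set each, and both passed (limma, adjusted p = 0.00451 and 0.02165). The count of lower probe sets, 5 as reported, was 3 with 1 mean per mouse, 0 among the lower and 3 among the upper sample numbers, 4 with the 3′ minus 5′ probe difference as a covariate, 2 with 1 probe set per gene, 3 without mouse 04, 2 without mouse 72, and 3 to 5 without single tumours (3 without KO tumour 6, 9 or 11 or WT tumour 13). The count of higher ones was 0 in every alternative run. List genes lower in KO tumours, 3 as reported, numbered 5 with the number range as a covariate, 0 among the lower sample numbers, and 2 to 6 without single tumours, with 6 without WT tumour 3. Those higher, 9 as reported, numbered 1 among the lower sample numbers and 4 without mouse 72. The Vim difference (1438118_x_at) was negative throughout, and missed the threshold at −1.18 and −1.45 log2 among the lower and upper sample numbers and −1.36 without mouse 72. Fn1 (1426642_at) missed it at −1.24 with mouse means, −1.66 and −2.09 among the lower and upper sample numbers, −1.30 without mouse 04 and −0.66 without mouse 72, and ranged from −1.74 to −1.34 without single tumours. Differences that did not pass turned sign as follows. Zeb1 was 0.13 with the 3′ minus 5′ probe difference as a covariate, 0.0895 with the fibroblast mean and 0.0034 without mouse 04. Snai1 was −0.0346 and Twist1 0.0519 among the lower sample numbers, and Snai2 was 0.0118 without mouse 72. Cdh2 was 0.0011 after cyclic loess, 0.0249 with the 3′ minus 5′ covariate, 0.0609 with the fibroblast mean, 0.0079 without mouse 04, 0.0422 without mouse 99, and −0.12 to 0.11 without single tumours. S100a4 was −0.31 with mouse means, −0.10 with the range covariate, −0.18 among the lower sample numbers, −0.0041 after cyclic loess, −0.24 without mouse 02, −0.79 without mouse 72, and −0.16 to 0.27 without single tumours. Fits on 1 number range or without mouse 72 leave 1 tumour in a group, assumed to vary like the others; beyond such smaller samples the cause was not tested. Signal over background was not assessed, which limits probe sets under the 40th percentile.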
